A study of Mus musculus with 8 samples.

Results

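*Sdc1* to *Sdc4* and *Gpc1* to *Gpc6* encode the syndecans and the glypicans, the core proteins of the heparan sulfate proteoglycans that are anchored in the plasma membrane. The members were taken by gene symbol, 4 syndecans and 6 glypicans among the 54658 gene symbols of the count table. Their mRNA was read by bulk RNA-seq in mouse articular chondrocytes in primary culture, of which 4 samples had received IL-1β, an inflammatory cytokine, at 1 ng/mL for 24 h and 4 samples had received vehicle. Both groups were wild-type cells, freed by collagenase from femoral head cartilage of mice at 3 weeks of age. Their strain, the number of mice behind a sample and the nature of the vehicle are not given in the sources used here. The 4 samples of a group are separate samples by their labels, and nothing says that they came from separate mice, so p-values measure the spread between these samples, which may be technical.

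Syndecans are transmembrane proteins with an extracellular part that carries heparan sulfate chains and a short cytoplasmic tail that binds PDZ-domain proteins. Glypicans are held in the outer leaflet by a glycosylphosphatidylinositol anchor and have no cytoplasmic part. The sulfated chains of both families bind growth factors, morphogens and chemokines at the cell surface, and in cartilage they belong to the machinery through which FGF, hedgehog, BMP and Wnt ligands reach chondrocytes. Syndecan-4 also acts with integrins at focal adhesions, and the ectodomains of syndecans can be shed by metalloproteinases.

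The tail that all syndecans share is visible in the end of their coding sequences. The last 30 coding bases of each, read 5′ to 3′ from the GENCODE vM21 transcripts (GRCm38) and ending with the stop codon, are shown with the 15 bases of the last 4 codons and the stop codon in capitals. These bases encode the PDZ-binding end of the tail, through which the syntenin encoded by *Sdcbp* binds.
Sdc1: cccaccaagcaggagGAGTTCTACGCCTGA
Sdc3: cctgacaagcaggagGAGTTCTACGCTTAG
Sdc2: aaggcacccactaagGAGTTTTATGCATAA
Sdc4: aaagcccccaccaatGAGTTCTACGCATGA
Over the 30 bases, *Sdc1* and *Sdc3* had 24 identical positions and *Sdc2* and *Sdc4* had 23, against 14 to 17 for the other pairs. The pairs *Sdc1* with *Sdc3* and *Sdc2* with *Sdc4* are also the known subfamilies. The 15 bases in capitals do not show these pairs, since *Sdc1* and *Sdc4* had 14 identical positions there and each subfamily pair had 12. The sequences lie on chromosome 12 from 8791778 to 8791807 (*Sdc1*, plus strand), chromosome 4 from 130822780 to 130822809 (*Sdc3*, plus strand), chromosome 15 from 33032511 to 33032540 (*Sdc2*, plus strand) and chromosome 2 from 164426086 to 164426115 (*Sdc4*, minus strand).

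The samples held 10992355 to 17456063 counts. A single gene, *Gm26917*, took 13.2% to 14.6% of the counts of each. Of the 10 members, 8 passed the filter on low counts (CPM, counts scaled to library size, above 1 in at least 4 samples), and these 8 had a CPM above 1 in all 8 samples. Counts were tested by edgeR's quasi-likelihood test over 14404 genes, and genes with a p-value under 0.05 after Benjamini-Hochberg adjustment were taken to pass. A differentially expressed gene (DEG) also changed by more than 1 in either direction on the log2 scale. Of the 8 members tested, 7 passed, of which 2 were higher and 5 lower after IL-1β, where 40.2% of all genes tested passed. Only *Sdc4* was a DEG among them, where 5.21% of all genes tested were DEGs and 2.86% were DEGs with higher levels. In 7 of the 8, the IL-1β and vehicle samples did not overlap, which held for 36.8% of all genes tested. The median absolute log2 fold change was 0.71 for the 8 members and 0.16 for all genes tested.

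**Figure D1:**
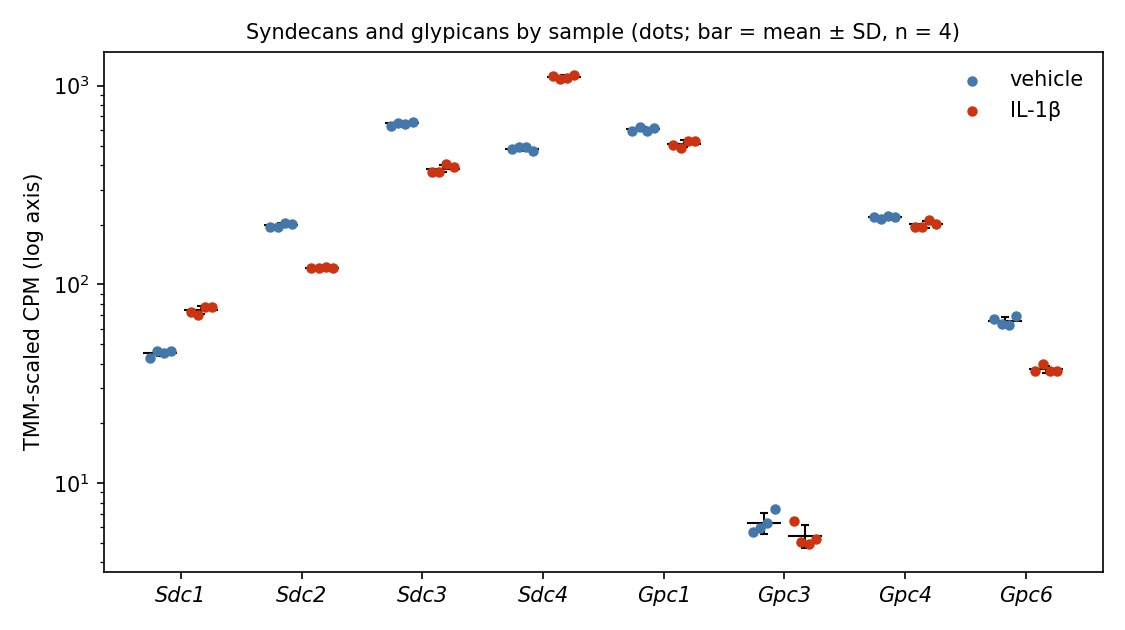
TMM-scaled CPM (log axis) of the 8 tested members in each of the 4 vehicle and 4 IL-1β samples, with dots for samples and bars for the mean ± SD. *Sdc4* rose from 483 to 1105 CPM on average and *Sdc3* fell from 646 to 382 CPM, while the dots of *Gpc3*, near 6 CPM, overlap between the groups.

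The levels of the members were compared with each other per length, as TPM, which scales the counts to the deposited gene length and then to the library. In vehicle-treated chondrocytes *Sdc4* was the most abundant member, with 531 ± 25.7 TPM (SD, n = 4), followed by *Gpc1* with 328 ± 8.86 TPM, *Sdc3* with 302 ± 4.69 TPM, *Gpc4* with 229.7 ± 7.52 TPM and *Sdc2* with 157 ± 4.31 TPM. These 5 members lay above 95.3% of the genes tested. *Sdc1* with 33.2 ± 1.01 TPM, *Gpc6* with 28.6 ± 1.06 TPM and *Gpc3* with 6.58 ± 0.598 TPM followed. The ranges of neighbours in this order did not overlap, although *Gpc1* exceeded *Sdc3* by a factor of only 1.09 and *Sdc1* exceeded *Gpc6* by 1.16. *Gpc2* and *Gpc5* stood last, and their ranges overlapped. With IL-1β, *Sdc4* led with 1176 ± 46.3 TPM, 4.38 times the level of *Gpc1*. *Sdc3* moved below *Gpc4* (173 ± 3.43 against 205 ± 4.22 TPM), and the rest of the order stayed as with vehicle.

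The transmembrane core proteins divided by direction, with *Sdc4* and *Sdc1* rising and *Sdc2* and *Sdc3* falling. *Sdc4* (ENSMUSG00000017009.3, chromosome 2, 164424247 to 164443887) had 1123, 1081, 1087 and 1129.85 CPM in the IL-1β samples and 482, 494, 489.5 and 467 CPM in the vehicle samples. The lowest IL-1β sample stood far above the highest vehicle sample. Its log2 fold change was 1.19 (standard error, SE, 0.0299; edgeR adjusted p = 3.69e-23), a rise of 2.29-fold (95% confidence interval 2.19 to 2.39). By p-value it ranked 70 of the 14404 genes tested. *Sdc1* (ENSMUSG00000020592.14, chromosome 12, 8771323 to 8793715), known as a marker of epithelial and plasma cells, had 72.9, 70.0, 77.0 and 77.2 CPM after IL-1β against 42.9, 46.4, 45.4 and 46.1 CPM with vehicle. Here too the groups were separate, and the log2 fold change was 0.72 (SE 0.0434, edgeR adjusted p = 4.12e-14), or 1.65-fold (95% confidence interval 1.55 to 1.75). The other plasma cell markers *Jchain*, *Mzb1*, *Tnfrsf17* and *Irf4* summed to 0.119 to 0.27 CPM after IL-1β against 0.0657 to 0.571 CPM with vehicle, with at most 5 counts for any of them in a sample. The epithelial markers *Epcam*, *Cdh1*, *Krt5*, *Krt14* and *Krt8* summed to 0.721 to 1.19 CPM after IL-1β against 0.923 to 1.44 CPM with vehicle.

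*Sdc3* and *Sdc2* moved the other way. *Sdc3* (ENSMUSG00000025743.14, chromosome 4, 130792537 to 130826319), first known as the syndecan of nerve and developing cartilage, had 370.1, 369, 402 and 388 CPM with IL-1β against 627, 653, 642 and 660.5 CPM with vehicle. Every IL-1β sample lay below every vehicle sample, with a log2 fold change of -0.76 (SE 0.0327, edgeR adjusted p = 1.72e-17), a fold of 0.592 (95% confidence interval 0.565 to 0.62). Antisense genes overlap 7.73% of the exon bases of *Sdc3*, and whether counting used the strand is not stated. The overlapping *Gm12970* had 2 to 20 counts per sample and *Gm26716* had 0. These counts do not show whether reads on the shared bases were lost, as such reads may be assigned to neither gene. *Sdc2* (ENSMUSG00000022261.6, chromosome 15, 32920723 to 33034935), a syndecan of mesenchymal cells, had 121.1, 121.3, 122.7 and 121.4 CPM after IL-1β against 194, 195, 203 and 201 CPM with vehicle. The groups did not overlap, and the IL-1β samples differed from each other by less than 2 CPM. The log2 fold change of *Sdc2* was -0.70 (SE 0.0292, edgeR adjusted p = 5.9e-18), a fold of 0.614 (95% confidence interval 0.589 to 0.64). In bulk samples, fewer cells of a type and less RNA per cell cannot be told apart.

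**Figure D2:**
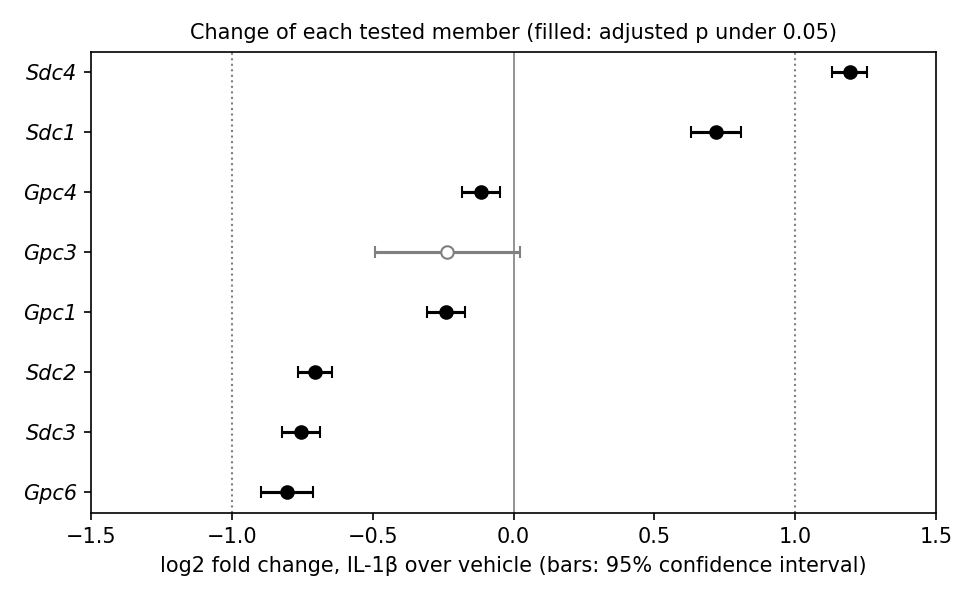
Log2 fold change of each tested member, IL-1β over vehicle, with its 95% confidence interval; filled dots had an adjusted p-value under 0.05 and dotted lines mark log2 fold changes of -1 and 1. *Sdc4* lies beyond 1, *Sdc1* is the other member to the right of 0, and the open dot of *Gpc3* has an interval that spans 0.

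Among the glypicans tested, 3 of 4 passed, all lower after IL-1β. *Gpc6* (ENSMUSG00000058571.11, chromosome 14, 116925315 to 117976544), a glypican known from growth plate cartilage and human skeletal dysplasia, had 36.8, 39.7, 36.9 and 36.7 CPM after IL-1β against 67.0, 63.5, 62.5 and 69.3 CPM with vehicle. Its groups were separate, and with a log2 fold change of -0.81 (SE 0.0451, edgeR adjusted p = 7.14e-15) it had the largest fall of the 8 members tested, to a fold of 0.572 (95% confidence interval 0.536 to 0.61). *Gpc1* (ENSMUSG00000034220.7, chromosome 1, 92831645 to 92860779), a coreceptor for FGF ligands, had 501, 486, 529.9 and 529 CPM after IL-1β against 591, 621, 594 and 611 CPM with vehicle. The groups did not overlap, but the fall was small, a log2 fold change of -0.24 (SE 0.0328, edgeR adjusted p = 6.52e-07). Exons of the antisense gene *Ankmy1*, which had 6 to 23 counts per sample, cover 18.9% of the exon bases of *Gpc1*. Whether reads on these shared bases were lost is not known, as for *Sdc3*. *Gpc4* (ENSMUSG00000031119.4, chromosome X, 52053021 to 52165252) had 194.1, 194.5, 211 and 202 CPM after IL-1β against 218, 212, 222 and 218.1 CPM with vehicle. Its highest IL-1β sample came close to its lowest vehicle sample, and its log2 fold change of -0.12 (SE 0.0326, edgeR adjusted p = 0.00502) was smaller in size than the median over all genes tested.

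*Gpc3* (ENSMUSG00000055653.13, chromosome X, 52272426 to 52613950), which restrains hedgehog signaling, had 6.49, 5.05, 4.93 and 5.25 CPM after IL-1β against 5.71, 5.95, 6.28 and 7.43 CPM with vehicle. The groups overlapped, because the highest IL-1β sample exceeded 3 of the 4 vehicle samples. Its log2 fold change of -0.23 (SE 0.126, edgeR adjusted p = 0.145) did not pass, and the interval of the fold, 0.711 to 1.02, holds both a fall like that of *Gpc1* and no change. *Gpc2* (ENSMUSG00000029510.15, chromosome 5, 138273655 to 138280005), a glypican of the developing nervous system, had 0, 2, 0 and 2 counts with IL-1β and 1, 0, 0 and 4 with vehicle; 55.6% of its exon bases are shared with *Gm43720* on the same strand. *Gpc5* (ENSMUSG00000022112.14, chromosome 14, 115092215 to 116525179) had 2 counts in IL-1β replicate 1 and 1 count in vehicle replicate 4, and 0 in the other 6 samples. At these depths 3 counts correspond to 0.172 to 0.273 CPM, for counting error only, so that neither gene was measured above the smallest abundance that could be shown in most samples and no fold is given. *Gpc3* and *Gpc4* are neighbours on chromosome X, 107173 bases apart, and *Gpc5* and *Gpc6* are neighbours on chromosome 14, 400135 bases apart. In the latter pair *Gpc6* was read at 62.5 to 69.3 CPM with vehicle while *Gpc5* was nearly unread.

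Added over the family, the syndecans held 974 to 1044 TPM with vehicle and 1449 to 1562 TPM with IL-1β, and the glypicans held 576 to 599.6 TPM with vehicle and 482 to 502 TPM with IL-1β. The summed syndecan level was 1.73 ± 0.0253 times the summed glypican level with vehicle and 3.02 ± 0.0975 times with IL-1β (SD, n = 4). These sums over members are descriptions and were not tested. *Sdc4* made up 51.9 ± 0.897% of the syndecan TPM with vehicle and 78.6 ± 0.633% with IL-1β. The share of *Sdc3* was 29.5 ± 0.642% and 11.6 ± 0.464%, that of *Sdc2* 15.4 ± 0.347% and 6.25 ± 0.129%, and that of *Sdc1* 3.25 ± 0.0948% and 3.53 ± 0.13%, respectively. *Sdc1* thus kept a small share although its CPM rose. Among the glypicans, *Gpc1* held 55.3 ± 0.936% with vehicle and 54.3 ± 0.571% with IL-1β, *Gpc4* held 38.8 ± 0.906% and 41.4 ± 0.525%, and *Gpc6* held 4.82 ± 0.22% and 3.20 ± 0.227%.

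**Figure D3:**
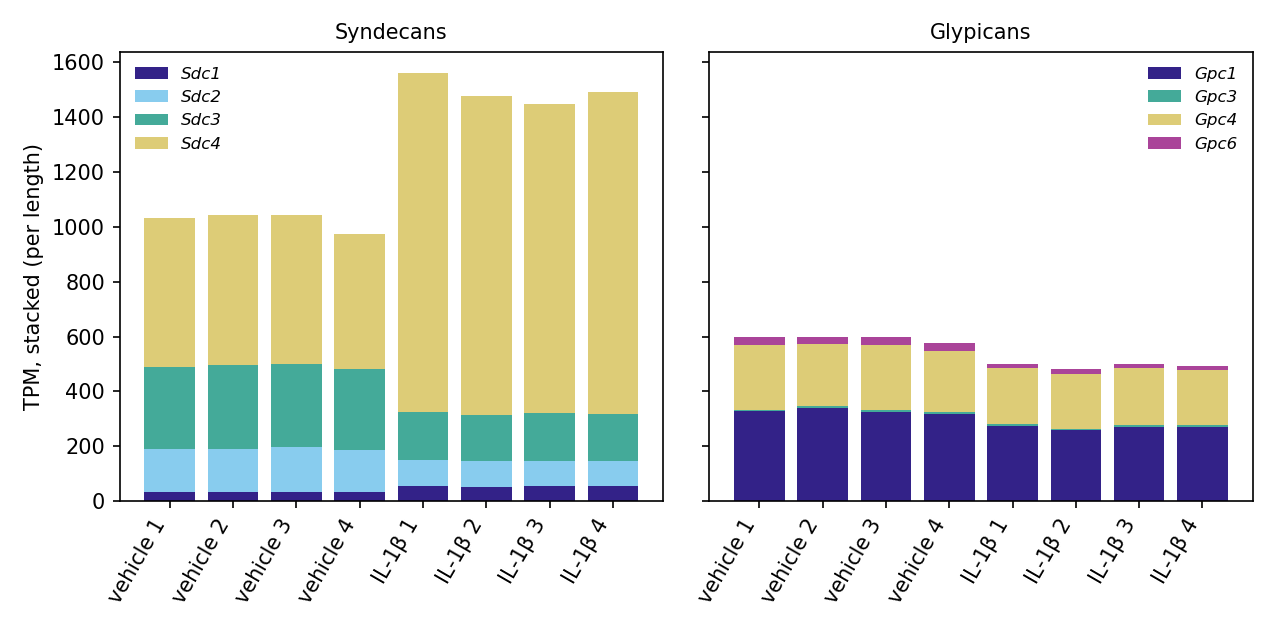
Stacked TPM of the syndecans (left) and glypicans (right) in each sample; each colour is a gene, and *Gpc2* and *Gpc5*, below 1 TPM, are not drawn. The syndecan bars reach 974 to 1044 TPM with vehicle and 1449 to 1562 TPM with IL-1β, and the part of *Sdc4* is the part that grew most.

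To compare close relatives directly, the log2 ratio of their levels per length was taken within each sample, for the 3 subfamily pairs in which both genes were tested. The level of *Sdc3* was 9.09 times that of *Sdc1* with vehicle and 3.27 times with IL-1β (log2 ratio of *Sdc1* to *Sdc3* -3.18 ± 0.03 and -1.71 ± 0.03, SD, n = 4, a difference of 1.47). The level of *Sdc4* was 3.37 times that of *Sdc2* with vehicle and 12.6 times with IL-1β (log2 ratio of *Sdc2* to *Sdc4* -1.75 ± 0.05 and -3.65 ± 0.04, a difference of -1.90). The level of *Gpc4* was 8.05 times that of *Gpc6* with vehicle and 13.0 times with IL-1β (log2 ratio 3.01 ± 0.07 and 3.70 ± 0.10, a difference of 0.69). In each pair the 4 IL-1β ratios did not overlap the 4 vehicle ratios. All 3 had p = 0.0286, and the same after Benjamini-Hochberg adjustment over the 3 pairs (exact permutation test, two-sided), which is the smallest p that 4 samples against 4 allow. Within both syndecan subfamilies a gene that rose stood beside a gene that fell. As the groups of each of these genes were already separate by CPM, the ratios of both syndecan pairs had to be separate too. Their p-values therefore add nothing to the tests of the single genes.

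**Figure D4:**
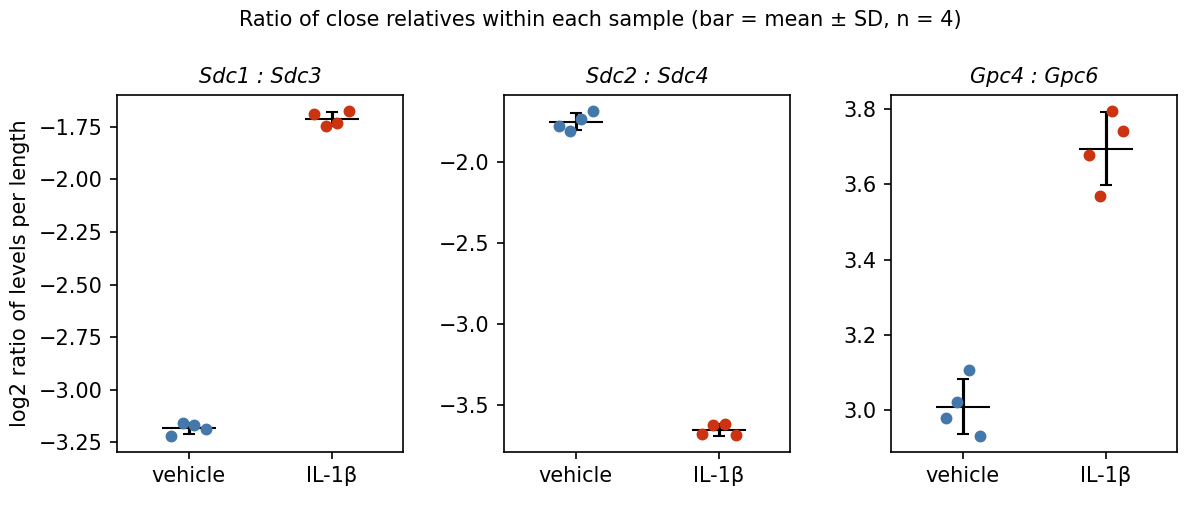
Log2 ratio of levels per length within each sample for *Sdc1* to *Sdc3*, *Sdc2* to *Sdc4* and *Gpc4* to *Gpc6*, with dots for samples, bars for the mean ± SD (n = 4) and a separate axis range for each pair. In each pair the vehicle and IL-1β dots are apart, with mean differences of 1.47, -1.90 and 0.69.

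The promoters were searched for short motifs, since *Sdc4* and *Sdc1* rose under a cytokine that is known to signal through NF-κB and AP-1. RefSeq promoters (GRCm38.p6, 250 bases before to 50 after the start) were at hand for 7 members, *Sdc1*, *Sdc3*, *Sdc4*, *Gpc2*, *Gpc3*, *Gpc4* and *Gpc5*. On both strands, the NF-κB consensus was matched in *Sdc4* alone among these 7, in 4.505% of all 32851 promoters and in 5.19% of the 12732 promoters of genes tested. The match is shown in capitals with 10 bases on either side, on the strand of the gene (minus strand), at chr2:164443251-164443280.
Sdc4: agctttcccgGGGGAATTCCgggcggtgcg
It starts 82 bases before the RefSeq transcription start and is followed directly by a GC box (GGGCGG), which it does not overlap. In GENCODE vM21 the gene begins further upstream, at 164443887, so that the match lies within the gene as annotated there. A GC box was present in all 7 promoters, in 35.7% of all promoters and in 62.5% of those of genes tested, so that it is common among genes read in these cells. The AP-1 motif TGANTCA was found in 0 of the 7, in 7.81% of all promoters and in 5.05% of those of genes tested. The absence of a match says only that these letters are not in the window, and no binding was measured.

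The study centers on *miR-146a-5p*, a microRNA, so the members' 3′ UTRs (GENCODE vM21, from the longest protein-coding transcript) were searched for matches to its seed. Positions 2 to 8 are shown in capitals in the RefSeq sequence.
miR-146a-5p: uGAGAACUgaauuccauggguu
A match was counted where the 3′ UTR pairs with positions 2 to 8, or with positions 2 to 7 followed by an A opposite position 1. Such matches were found in 2 of the 10 members, *Gpc1* and *Gpc4*, and in 20.8% of the 11917 tested genes with a 3′ UTR. The sites are given with the matched bases in capitals.
Gpc1, nucleotides 607 to 613 of the 3′ UTR: cagtgaatctgGTTCTCAaaaaaagaccca
Gpc1, nucleotides 1969 to 1976: agccatagaaaAGTTCTCAttcctgccagg
Gpc4, nucleotides 52 to 59: caaaggcaccaAGTTCTCActttttttttt
They lie at chr1:92859160-92859189 and chr1:92860522-92860551 (plus strand) and chrX:52053451-52053480 (minus strand). The first of *Gpc1* is of the latter kind and has no match at position 8, while the other 2 sites match positions 2 to 8 and also have the A opposite position 1. *Gpc1* and *Gpc4* fell by 0.24 and 0.12 on the log2 scale, the smallest falls among the 5 members that passed with lower levels. *Gpc6*, *Sdc3* and *Sdc2*, with the larger falls, held no such match. The 3′ UTRs searched differed in length, from 359 bases for *Gpc3* to 3510 for *Sdc3*. Whether *miR-146a-5p* has a part in any of these changes was not tested.

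Genes for the chains, for release and processing of the core proteins, for tail partners, for ligands and for other proteoglycans were described from lists. These lists held 74 genes in all, of which 57 were tested. Of these, 36 passed, 12 higher and 24 lower after IL-1β, with a median log2 fold change of -0.05 against -0.0012 for all genes tested, and 3 were DEGs. In all genes tested, 40.2% passed, 20.4% with higher and 19.8% with lower levels. Of the 12 genes for the linker and for chain polymerisation, 5 passed, all lower, and 7 did not. *Xylt1*, a xylosyltransferase that starts the linker, had 184.6 ± 2.35 CPM after IL-1β against 294.6 ± 6.35 CPM with vehicle (log2 fold change -0.67, edgeR adjusted p = 6.03e-17). *Xylt2*, the other xylosyltransferase gene, did not pass (log2 fold change 0.15, edgeR adjusted p = 0.101). *Ext2* and *Fam20b*, a subunit of the chain polymerase and the xylose kinase, had log2 fold changes of -0.32 and -0.30. *Ext1*, the partner of *Ext2*, had 65.6 ± 1.71 CPM after IL-1β against 64.8 ± 1.52 CPM with vehicle (adjusted p = 0.771). *B3gat3*, the glucuronosyltransferase of the linker, had the highest mean level per length of this list over the 8 samples, fell by 0.15 on the log2 scale and had overlapping groups.

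Of the 16 genes for chain modification, 9 were tested and 7 of these passed, all lower. *Glce*, the epimerase with the highest level of this list, fell by 0.13 and *Ndst1*, an N-deacetylase and N-sulfotransferase, by 0.11 on the log2 scale. The 3-O-sulfotransferase genes fell further, with log2 fold changes of -0.80 for *Hs3st1*, -0.66 for *Hs3st3a1* and -0.53 for *Hs3st3b1*, at 1.89 to 15.8 CPM with vehicle, and the groups of *Hs3st3a1* overlapped. *Hs3st3a1* lost its call in 6 of 14 alternatives, DESeq2 among them (adjusted p = 0.0779). *Ndst2* and *Hs6st2* did not pass. For the sulfate donor, *Papss2*, the PAPS synthase of cartilage, had 96.3 ± 0.931 CPM after IL-1β against 160.1 ± 4.32 CPM with vehicle (log2 fold change -0.73, edgeR adjusted p = 1.48e-17), and the sulfate transporter gene *Slc26a2* had a log2 fold change of -0.50. The other 3 of the 5 genes of this list did not pass. These genes also serve chondroitin sulfate, as do the linker genes *Xylt1*, *Fam20b* and *B3gat3*. Outside the cell, the 6-O-endosulfatase gene *Sulf1* rose by 0.19 on the log2 scale, while *Sulf2* had 250.7 ± 11.7 and 257.9 ± 4.89 CPM after IL-1β against vehicle, respectively (adjusted p = 0.395). The heparanase gene *Hpse* was below the filter, with 0.872 ± 0.271 and 0.849 ± 0.268 CPM, and *Hpse2* had 0 counts.

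**Figure D5:**
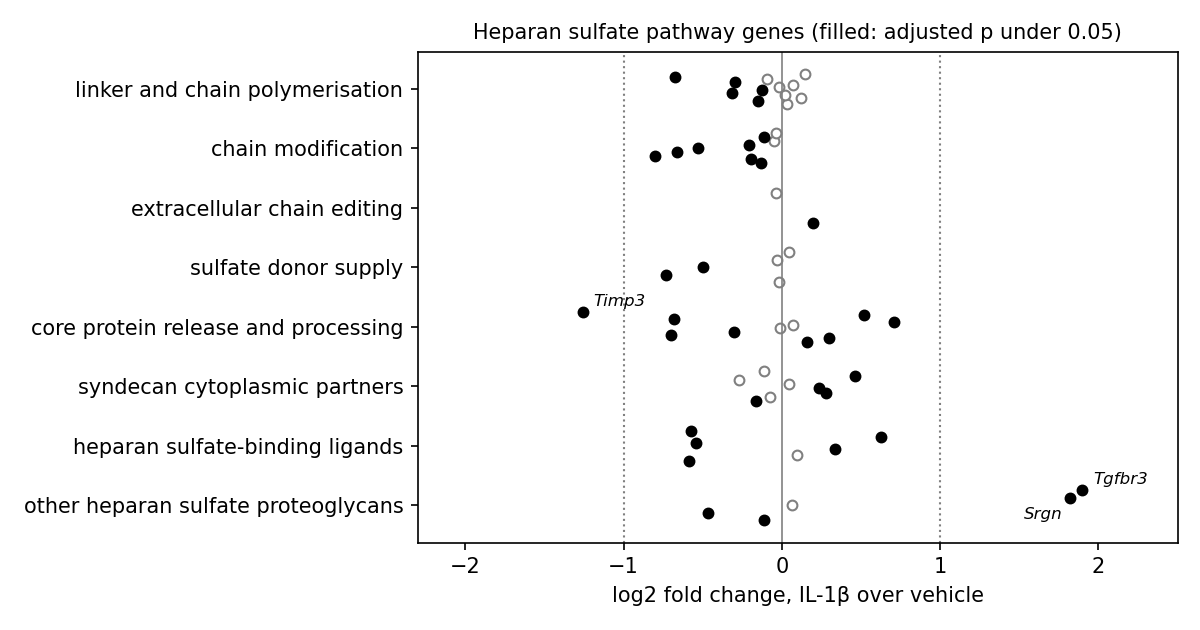
Log2 fold change, IL-1β over vehicle, of the 57 tested genes of the pathway lists; filled dots had an adjusted p-value under 0.05, open dots did not, and dotted lines mark -1 and 1. Filled dots of chain polymerisation, chain modification and sulfate supply all lie left of 0, and the 3 DEGs *Timp3*, *Tgfbr3* and *Srgn* are named.

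Of the 12 genes for release and processing of the core proteins, 10 were tested and 8 passed, 4 higher and 4 lower. *Timp3*, an inhibitor of ADAM and matrix metalloproteinases that act on syndecans, was the DEG of this list and its most abundant gene, with 2548 ± 111 CPM after IL-1β against 6092 ± 218 CPM with vehicle (log2 fold change -1.26, SE 0.0292, edgeR adjusted p = 5.44e-24). The sheddase genes *Adam17* and *Adam10* rose by 0.30 and 0.16 on the log2 scale and *Mmp2* by 0.71. *Adamts1* fell by 0.70 and *Furin*, a convertase that cleaves glypicans, by 0.30. *Mmp14* did not pass (adjusted p = 0.233), and neither *Mmp9*, at 0.711 ± 0.33 and 0.546 ± 0.197 CPM, nor *Mmp7*, with 0 counts, was tested. *Notum*, which cuts the anchor of glypicans, had 2.10 ± 0.565 and 3.43 ± 0.762 CPM (log2 fold change -0.68, edgeR adjusted p = 0.00612), with overlapping groups.

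Among 8 genes for partners of the syndecan tail, 4 passed, 3 higher and 1 lower, where 40.2% of all genes tested passed. *Tiam1*, *Gipc1* and *Prkca*, the last of which encodes a kinase that syndecan-4 is known to activate, had log2 fold changes of 0.46, 0.28 and 0.23, and *Cask* had one of -0.16. *Sdcbp*, whose product binds the coding ends shown above, had 184.4 ± 1.63 CPM after IL-1β against 178.7 ± 2.74 CPM with vehicle (log2 fold change 0.05, edgeR adjusted p = 0.23). Of 12 genes for ligands that bind the chains, 6 were tested and 5 passed. *Vegfa* and *Fgf2* rose by 0.63 and 0.34 on the log2 scale, and *Bmp2*, *Wnt5a* and *Hbegf* fell by 0.59, 0.57 and 0.54. *Ptn* and *Mdk*, ligands known to bind *Sdc3*, were not tested, with at most 0.608 CPM on average in either group.

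Of 5 other proteoglycan genes that can carry such chains, 2 were DEGs, both higher. *Tgfbr3*, which encodes the TGF-β coreceptor betaglycan, had 276.2 ± 2.01 CPM after IL-1β against 74.1 ± 2.33 CPM with vehicle (log2 fold change 1.90, SE 0.0315, edgeR adjusted p = 1.64e-27). *Srgn*, the proteoglycan of secretory granules, stood at 3.23 ± 0.426 CPM with vehicle and reached 11.4 ± 0.591 CPM after IL-1β (log2 fold change 1.82, edgeR adjusted p = 1.79e-13). *Hspg2*, or perlecan, the most abundant of these, had 2975 ± 86.7 and 2847 ± 84.0 CPM (log2 fold change 0.06, edgeR adjusted p = 0.0606). *Col18a1* fell by 0.46 on the log2 scale. *Agrn* passed narrowly (log2 fold change -0.11, edgeR adjusted p = 0.0495), and its call was lost in 10 of 15 alternatives (adjusted p = 0.107 by DESeq2). *Hspg2* passed in 3 of them.

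Markers of other cell types were read beside the members. The 8 chondrocyte markers were present in both groups and 8 of 8 were lower after IL-1β, each as a DEG. Their CPM summed to 14727 to 15305 with vehicle and 3700.2 to 4070.2 with IL-1β, and the part of this fall in the members' changes was not tested. Summed over 7 macrophage and leukocyte markers the CPM was 1.21 to 1.71 with IL-1β and 1.10 to 1.64 with vehicle, with *Cd3e* at 0 counts, and over 5 endothelial markers it was 1.06 to 1.66 and 0.865 to 1.71. The fibroblast list summed to 186 to 203 CPM after IL-1β against 169 to 176 CPM with vehicle, and within it *Pdpn* and *Pdgfra* rose, *Col3a1* fell and *Col1a1* did not pass. The osteoblast list summed to 25.9 to 31.4 CPM after IL-1β against 84.0 to 94.9 CPM with vehicle, and its 3 tested genes were lower as DEGs.

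For *Sdc4*, the only DEG among the members, the genes with the nearest pattern were sought among the 14404 tested, by the root mean square difference over the 8 samples of log2(CPM + 1) relative to the vehicle mean. They were *Man1a*, a Golgi mannosidase of N-glycan trimming (0.02 on the log2 scale), *Pnrc1*, a coactivator of nuclear receptors (0.03), and *Prg4*, the lubricin of the cartilage surface (0.04). *Prg4* rose from 856 ± 21.7 CPM to 2011 ± 47.1 CPM, *Pnrc1* from 115.6 ± 2.92 to 264 ± 3.07 CPM and *Man1a* from 41.7 ± 1.30 to 96.4 ± 1.52 CPM (log2 fold changes 1.23, 1.19 and 1.21). Over 8 samples in 2 treatment groups, this measure mostly compares the size of the rise.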

How the data were processed

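Per the submitters' processing notes and methods, reads were cutadapt-trimmed, mapped with STAR to mm10 (GENCODE vM20) and assigned to genes by featureCounts; the sources differ on the STAR version. The deposited table holds whole-number counts and a gene length in bases per symbol. Whether the authors' RUVseq batch correction preceded these counts is not stated. The lengths equalled the summed exon lengths in GENCODE vM21 (GRCm38) for all 10 members and gave TPM.

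After TMM normalization (factors 0.984 to 1.01), treatment was the only term of edgeR's quasi-likelihood fit over 14404 genes (R 4.3.3 with edgeR 4.0.16 and limma 3.58.1). The standard error is the log2 fold change divided by the root of the F statistic. The code was tested on simulated data. Of 200 genes changed by 0.5 on the log2 scale, 96.5% were recovered, with 13 false calls among 14195 genes. The changed genes were drawn from the more abundant genes only, and all others were left unchanged. Recovery was therefore not tested for the least abundant genes or for as many changes as in these data. Ratios, sequences and figures were made with scipy 1.17.1, statsmodels 0.14.6, pandas 2.3.3, numpy 2.4.6 and matplotlib 3.10.9 under Python 3.11.15.

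The members and lists were chosen with earlier results of these data known. All members were named, with the DEGs and the most abundant gene of each list. Other list genes were named after their values were seen. Alternatives were DESeq2 1.42.0, DESeq2's size factors, total library size, other filters, the replicate number as a block, 1 factor by the RUVs procedure, and each sample left out. Same-numbered samples did not deviate together (r from -0.0699 to 0.0416).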

Additional observations from a re-analysis of the deposited data

Results flagged for a closer look

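*Gpc6* read 39.7 CPM in IL-1β replicate 2, while the remaining IL-1β samples read 36.7 to 36.9 CPM, a gap wider than Dixon's 95% limit for 4 values. The sample was still below every vehicle sample. The same comparison was made in 22 groups of 4 values, from the 8 tested members and the 3 DEGs of the pathway lists (11 genes) in both treatments, and this was the 1 group past the limit. Chance passes it in 1 of 20 groups, here 1.1.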

How the results depend on the processing

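For the 8 members tested, the direction and the side of the threshold were the same under the 7 other settings and with each of the 8 samples left out. The log2 fold change of *Sdc4* lay between 1.18 and 1.21 over these, that of *Sdc1* between 0.69 and 0.75 and that of *Gpc6* between -0.83 and -0.78, and that of *Gpc3*, which passed under none of them, between -0.32 and -0.15. With the replicate number as a block, 2 members passed with higher and 5 with lower levels, as without it. The numbers mark no known pairing, and 0 of the 4 numbers had their samples correlate best with each other. A paired exact sign-flip test of the ratios, which cannot go below 0.125 with 4 pairs, gave the same differences of 1.47 for *Sdc1* to *Sdc3*, -1.90 for *Sdc2* to *Sdc4* and 0.69 for *Gpc4* to *Gpc6* (adjusted p = 0.125). With a sample left out these were 1.46 to 1.48, -1.92 to -1.88 and 0.65 to 0.73, where the exact permutation test of 3 against 4 samples cannot go below p = 0.0571. Of the 36 genes of the pathway lists that passed, 31 passed in every alternative that gave a value, and the count lay between 32 and 37. It was 5 to 7 for chain modification (7 as reported), 7 to 9 for release and processing (8), 5 to 7 for the linker and polymerisation (5), 3 to 5 for other proteoglycans (4), 4 to 5 for tail partners (4) and 5 to 6 for ligands (5). The calls lost were *Agrn* (DESeq2, DESeq2's size factors, both other filters, and without IL-1β replicate 1, 2 or 4 or vehicle replicate 2, 3 or 4), *Hs3st3a1* (DESeq2, and without IL-1β replicate 1 or 4 or vehicle replicate 2, 3 or 4), *Pcsk5* (DESeq2, and without IL-1β replicate 3 or vehicle replicate 2 or 4), *Hs2st1* (without IL-1β replicate 2 or vehicle replicate 2) and *Adam10* (without vehicle replicate 1), with adjusted p-values of at most 0.203. *Hspg2* passed with total library size, with the RUVs factor and without IL-1β replicate 2, and *Xylt2*, *Extl3*, *Mmp14* and *Ezr* passed with 1 sample left out. *Xylt2* and *Extl3*, both of the list for the linker and for chain polymerisation, passed there with higher levels after IL-1β. Without a filter on low counts, 1 gene of the ligand list, *Ihh*, was a DEG, against 0 with it. *Gpc2* and *Gpc5* are limited by few counts, at no more than 4 in a sample. For *Gpc2*, whether reads on the exon bases shared with *Gm43720* were counted is not known.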
